A study of Mus musculus with 40 samples.

Results

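Fully grown mouse oocytes that lacked both G9a and Glp were compared with control oocytes by RNA sequencing, and the loci described here are those with RNA in that comparison. A locus was taken when it had at least 1 read in at least 2 of the 5 libraries compared, which are 3 control libraries and 2 libraries of the double knockout (labelled G9a-Glp cDKO, called cDKO below). The rule kept 23458 of the 38540 loci the authors deposited (60.9%). Of the loci kept, 12377 lie on a gene in the same orientation, 4306 run antisense to a gene, 823 lie beside a gene and 5952 are intergenic. The genes among them carry 12040 distinct symbols. The 2826 loci just inside the rule, with reads in exactly 2 libraries, had a median of 3 reads in all and a maximum of 105. The 4146 loci just outside it, with reads in 1 library, had a median of 1 read and a maximum of 12. Through cDKO reads alone 593 loci passed, and 980 passed through control reads alone, so the direction of their difference was set by the rule.

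The Ehmt2 gene encodes G9a and the related Ehmt1 gene encodes GLP, 2 histone methyltransferases that work as a heterodimer. Together they place mono- and dimethylation on lysine 9 of histone H3 in euchromatin, a mark (H3K9me2) associated with silent genes. In the growing oocyte, chromatin marks are laid down while a large store of maternal mRNA builds up, and transcription then stops in the fully grown, germinal vesicle stage oocyte before meiosis resumes.

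The series measured RNA and H3K9me2 in such oocytes from mice of 22 to 25 days, collected by manual dissection in pools of 100 to 200 oocytes per RNA sample. The control and cDKO libraries compared carry the title prefix GKAQ, and in cDKO both genes were deleted conditionally. A second set, with the prefix GKAO, holds 3 controls and 3 libraries with conditional deletion of G9a alone (labelled G9a cKO). It is used here for reference and in the estimate of spread that all RNA libraries share. The driver of the deletion is not given in the sources used here, and the labels do not say whether pools came from separate animals, so p-values measure the spread between these libraries.

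The control libraries, called control 1, 2 and 3 (GKAQ54_1e, GKAQ55_1b and GKAQ57_1f), were scaled to totals of 1591100, 2399680 and 2028797 reads. Libraries cDKO 1 (GKAQ51_1c) and cDKO 2 (GKAQ55_1e) were scaled to 1756271 and 1686855 reads. Summed over the loci, which overlap, the reads came to 1641341, 2477440 and 2093557 in controls and 1802714 and 1728182 in cDKO. Values are in RPM, reads scaled to each library's total, and are not divided by gene length, so levels are compared between libraries and not between genes. A locus without reads carries the value of 0.9 read in the deposited data, and because the cDKO libraries were on average shallower, a locus empty in all 5 libraries shows a log2 fold change of 0.20. A locus was called when limma gave a Benjamini-Hochberg adjusted p under 0.05 over all loci of the table.

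Markers of oocytes summed to between 21290 and 22080 RPM in the controls and to 21810 and 22080 RPM in cDKO, with 19 of 20 markers in the table and all 19 above 0. Granulosa cell markers, of the somatic cells that surround the oocyte, summed to 451, 493 and 457 RPM in controls and to 545 and 498 RPM in cDKO. Amh had 0, 5 and 1 reads in controls and 1 and 1 in cDKO, Foxl2 had 0, 1 and 2 against 0 and 4, and Nr0b1 had 0 in every library. Other uncalled markers were abundant. Esr2 had 144, 217 and 171 reads against 154 and 154, Nr5a2 114, 215 and 157 against 139 and 103, and Cyp19a1 78, 109 and 96 against 62 and 40. Of 20 granulosa markers measured, 3 were called higher and 0 lower (median log2 fold change 0.04), against 7.82% higher, 4.83% lower and a median of 0.12 over all 12040 named genes. The called markers were Serpine2 (log2 fold change 0.44 ± 0.12 SE), Inha (2.26) and Fshr (2.15), and each lost its call when a library was left out. Serpine2 had an adjusted p of 0.195 without cDKO 1, Inha 0.0599 without control 3 and 0.131 without cDKO 2, and Fshr 0.137 without control 1, 0.385 without cDKO 1 and 0.065 without cDKO 2. Inha also moved to a log2 fold change of 2.90 without control 2, and Fshr to 1.49 without control 1. Theca and stroma markers summed to 3.77, 10.8 and 6.41 RPM in controls and to 5.12 and 10.7 RPM in cDKO. Of the 11 such markers in the table Cyp17a1, Col1a2, Col3a1, Lum, Pdgfrb and Acta2 had no read, and of the 4 measured 0 were called higher and 0 lower (median 0.04). Blood and endothelial markers summed to 115, 147 and 147 RPM against 155 and 150 RPM, with the haemoglobin genes, Slc4a1, Lyz2 and Vwf at 0. Of the 5 measured, 1 was called higher and 0 lower (median 0.20), and that gene, the endothelial receptor Kdr (log2 fold change 1.71), did not pass without cDKO 1 (adjusted p = 0.0558). The part of these other cells in the results below was not tested. In such pools, fewer cells of a type and less RNA per cell cannot be told apart.

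Reads from the deleted genes were examined first. Ehmt1, which encodes GLP (ENSMUSG00000036893, GRCm38 chromosome 2, 24790769 to 24919653, minus strand), had 90.5, 68.3 and 85.3 RPM in the controls and 17.7 and 21.3 RPM in cDKO. The groups did not overlap, and the log2 fold change was -2.06 ± 0.20 (SE, n = 3 controls and 2 cDKO, adjusted p = 1.09e-21 in limma). Ehmt2, which encodes G9a, had few reads in any library, with 8, 30 and 16 in controls and 5 in each cDKO library. All 3 controls lay above both cDKO libraries, but the difference did not pass the threshold (log2 fold change -1.45 ± 0.57, adjusted p = 0.121). The position of the deleted exons is not given in the sources used here, so the remaining reads of both genes cannot be assigned to intact or deleted transcripts.

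Of the 23458 loci, 1650 were higher in cDKO (7.03%) and 779 were lower (3.32%), 10.4% in either direction. Over all 38540 loci, 4.32% were higher and 2.02% lower, 6.34% in either direction. Higher loci made up 67.9% of the calls. That split depends on the scaling: with each library centred on the median of its loci at or above 10 RPM, 1286 were called higher and 1140 lower, and with median-ratio size factors 1325 and 1059. Among named genes, with 1 locus per gene, 941 of 12040 were higher (7.82%) and 581 lower (4.83%), which became 702 and 869 when centred. The median log2 fold change over named genes was 0.12 (0.03 when centred). Without cDKO 1 the number of called loci fell to 1474 of which 958 were higher, and leaving out any other library gave 1716 to 1813.

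Among called loci rises were larger than falls, but the higher and lower loci differed in level. A change of at least 4-fold was seen in 758 of the higher and 93 of the lower loci, and a change of at least 8-fold in 221 and 9. The median level of the higher loci was 4.69 RPM in controls and 19.7 RPM in cDKO, and that of the lower loci 106 and 66.7 RPM. Of the higher loci, 143 entered only through reads in cDKO and 1507 had reads in both groups. Among the lower loci 774 had reads in both groups. In 2407 of the 2429 called loci all libraries of one group lay above all of the other. That arrangement is common: 9224 of the 23458 loci had it, 6088 with cDKO above and 3136 with cDKO below. The rule fixed it for the 593 loci that passed through cDKO reads alone. A further 980 loci passed through control reads alone. Among these it was fixed, with cDKO below, wherever every control had reads, and the number of such loci is not given here. The split into 6088 and 3136 is therefore partly set by the rule, and no direction is read from it. The share of loci with this arrangement over all 38540 loci was not computed. The called loci were of unequal length, with a median of 16.6 kb for higher loci, 35.5 kb for lower loci and 15 kb for those not called. A locus on the opposite strand overlapped 33.8% of the higher and 46.9% of the lower loci, and whether reads were assigned by strand is not given in the sources used here.

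**Figure D1:**
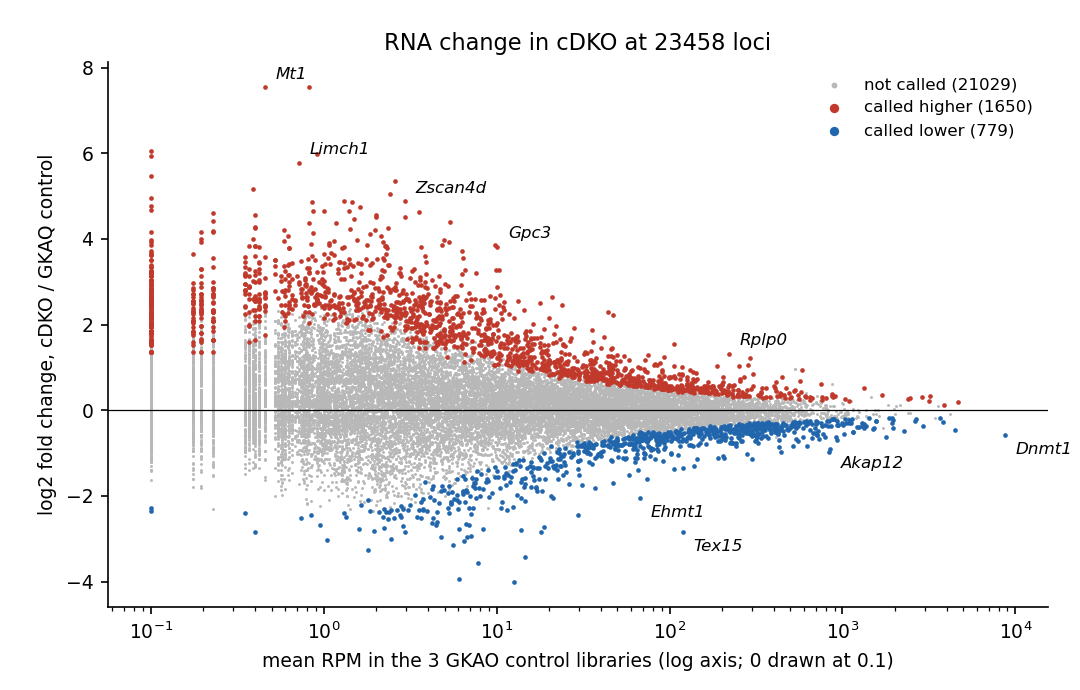
Change against level for the 23458 loci. The horizontal axis is the mean RPM in the 3 GKAO controls (log axis, 0 drawn at 0.1), the vertical axis is the log2 fold change of cDKO over the GKAQ controls, and points are loci, red where called higher (1650) and blue where called lower (779). Changes past 8-fold are nearly all upward (221 against 9), and Mt1 and Limch1 stand at the top, with Tex15 among the lowest named genes.

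The share of loci called higher lay between 5.68% and 7.90% at every level, whereas the share called lower climbed with the level. Loci were placed by their mean in the GKAO controls. Those levels did not enter the fold change, but the GKAO libraries entered the shared estimate of spread, so levels and calls are not fully independent. With 0 RPM there, 7.25% were higher and 0.093% lower in cDKO. An empty locus is set at 0.9 read, so a locus with almost no control reads has little room to fall. The low shares called lower at the lowest levels were therefore largely fixed in advance. Between 1 and 10 RPM the shares were 7.40% and 1.49%, and between 10 and 100 RPM they were 7.30% and 4.44%. Above 100 RPM 7.90% were higher and 15.3% lower. At that highest level the 2 sets of controls also differed from each other, with 14.6% of loci higher in GKAQ than in GKAO controls and 17.4% lower, against 3.21% and 3.12% over all loci. The shares also varied with the position of a locus relative to genes. Intergenic loci were called higher in 7.76% and lower in 0.874%, loci on a gene in 7.70% and 4.73%, and antisense loci in 5.18% and 3.11%. The 823 loci beside a gene had the fewest calls, 1.46% higher and 0.972% lower.

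**Figure D2:**
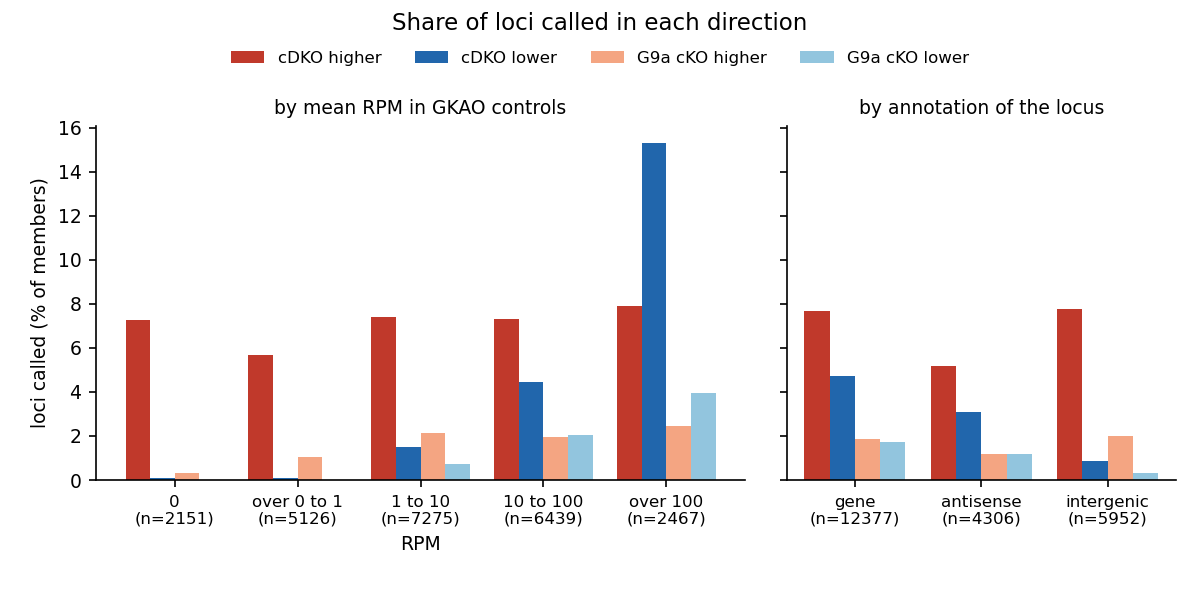
Percent of loci called higher or lower, for cDKO against GKAQ controls and for G9a cKO against GKAO controls. Bars are grouped by mean RPM in GKAO controls and by position relative to genes. In cDKO the share lower goes from 0.093% at 0 RPM, where loci have little room to fall, to 15.3% above 100 RPM. The share higher lies between 5.68% and 7.90%.

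The higher loci took a larger share of all reads in cDKO and the lower loci a smaller one. The higher loci held 7.29%, 7.59% and 7.52% of the reads in controls and 12.1% and 11.3% in cDKO, and the lower loci 22.1%, 21.4% and 21.4% against 15.7% and 16.3%. These libraries chose the loci, so these shares are a description. The GKAO libraries entered the choice only through the shared estimate of spread. In them the higher loci held 9.22% to 9.26% in controls and 10.3% to 10.4% in G9a cKO. The lower loci held 19.3% to 19.4% and 17.8% to 18.1%.

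Among the most strongly raised genes were several with almost no reads in controls. Mt1, which encodes metallothionein 1, a small zinc- and copper-binding protein (ENSMUSG00000031765, chromosome 8, 94179089 to 94180325), had 1, 0 and 0 reads in controls and 144 and 161 in cDKO. The ratio of the summed levels was 533, with an exact 95% counting interval of 95.0 to 21130 that covers counting error only. An unnamed antisense locus there had the same reads, so the strand of this RNA is not settled. Limch1, which encodes an actomyosin-binding protein, had 0, 2 and 1 reads against 63 and 54, a ratio of 68.2 (22.8 to 335). Reg3d, a secreted lectin of the Reg family, had 0, 0 and 1 reads against 22 and 26, a ratio of 83.9 (14.4 to 3383). Mll1, an H3K4 methyltransferase gene, had 0, 1 and 1 reads against 34 and 27, a ratio of 53.3 (14.1 to 450). In each of these genes both cDKO libraries lay above all 3 controls, which the rule that named them required.

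Rdh16, which encodes a retinol dehydrogenase, had 20 and 26 reads in cDKO and none in any control, at least 26.8-fold higher (against 3 counts over the control group). Usp17l5, a deubiquitinase of a multicopy family, had 48 and 25 reads in cDKO and none in controls, at least 42.5-fold higher. Both genes entered only through cDKO reads, so their direction was set by the rule. Rgs7, which encodes a regulator of G protein signalling, had 1, 5 and 1 reads against 51 and 47, a log2 fold change of 5.04 ± 0.66 that was 5.67 without control 2. Its groups did not overlap, which the rule that named it required. Ephb1, an ephrin receptor kinase, had 1, 6 and 5 reads against 91 and 68 (log2 fold change 4.86 ± 0.55, adjusted p = 4.22e-16). Gab1, a docking protein downstream of receptor kinases and an imprinted gene in some tissues, had 0, 4 and 6 reads against 54 and 70 (4.67 ± 0.55). Without control 1 these became 4.20 and 4.01, both still called.

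Ptgs2, which encodes the prostaglandin synthase COX-2, had 2, 1 and 1 reads in controls and 25 and 30 in cDKO (log2 fold change 4.64 ± 0.80, adjusted p = 9.02e-07). Tlr8, an endosomal RNA receptor on the X chromosome, had 0, 8 and 2 against 47 and 58 (4.62 ± 0.54, and 5.34 without control 2). Slc34a2, a sodium-phosphate transporter, had 0, 5 and 2 against 34 and 33 (4.21 ± 0.75). Control 2, the deepest control, held the most control reads of Rgs7, Ephb1, Tlr8 and Slc34a2. With 0.1 RPM added to every value before the log, Reg3d, Mll1, Gab1, Ptgs2, Tlr8 and Slc34a2 did not pass (adjusted p from 0.0575 to 0.196). Loci without a gene name rose as far. TCONS_00020214 on chromosome 11 (99810623 to 99810910, beside Krtap4-13) had 56 and 49 reads in cDKO and none in controls, at least 61.2-fold higher. It entered only through cDKO reads, so its direction was set by the rule. TCONS_00022131 on chromosome 12 (47542545 to 47545550) had 2, 3 and 0 against 96 and 98 (log2 fold change 5.99), and missed the threshold only with 0.1 RPM added (adjusted p = 0.089).

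**Figure D3:**
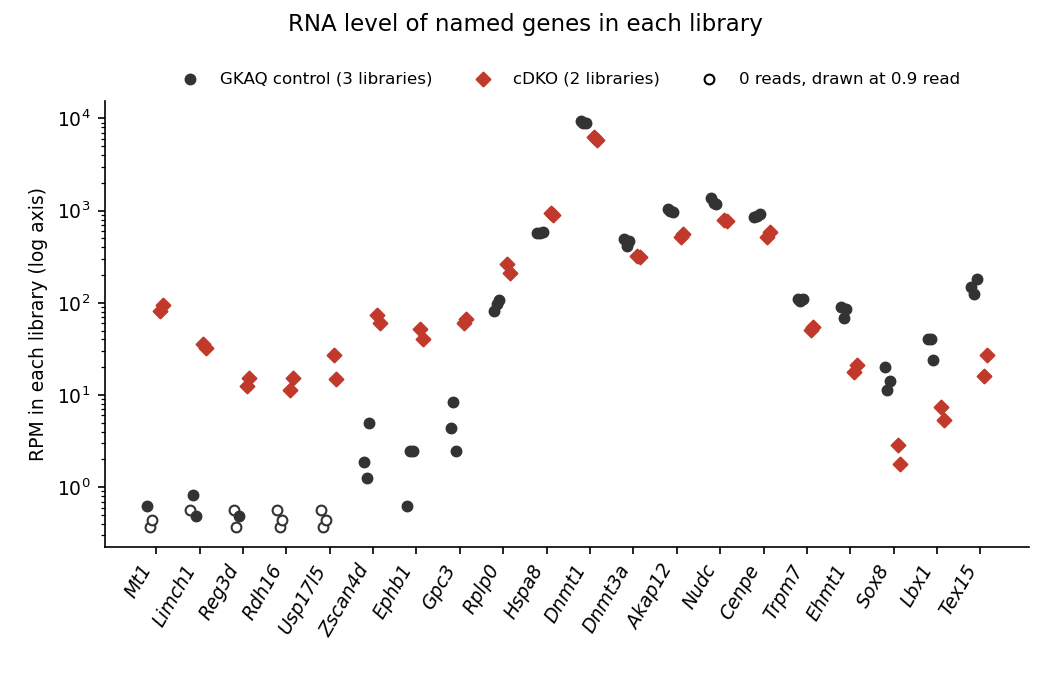
Level of 20 genes in each library, in RPM on a log axis, with circles for the 3 controls and diamonds for the 2 cDKO libraries; an open mark stands for 0 reads, drawn at the value of 0.9 read. RPM is not corrected for length, so points are compared within a gene: Mt1 goes from 0 or 1 read to 82.0 and 95.4 RPM, and Tex15 from 125 RPM or more to 15.9 and 27.3 RPM.

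Promoter sequences were then compared between genes called higher, called lower and not called. RefSeq promoters (GRCm38.p6) were matched to 9100 of the 12040 named genes, and 6637 had their start within 500 bp of the start of the locus. The following 250 bases upstream of the start are shown because the values of these genes are given in the text and they hold one of the motifs that were searched. TATAAA, the core of the TATA box, is in capitals in 4 genes that were higher in cDKO.
Usp17l5: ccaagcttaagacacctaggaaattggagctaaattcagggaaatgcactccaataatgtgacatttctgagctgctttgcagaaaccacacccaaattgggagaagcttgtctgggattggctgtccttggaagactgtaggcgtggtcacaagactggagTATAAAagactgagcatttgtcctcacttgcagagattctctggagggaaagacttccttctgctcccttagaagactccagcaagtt
Rdh16: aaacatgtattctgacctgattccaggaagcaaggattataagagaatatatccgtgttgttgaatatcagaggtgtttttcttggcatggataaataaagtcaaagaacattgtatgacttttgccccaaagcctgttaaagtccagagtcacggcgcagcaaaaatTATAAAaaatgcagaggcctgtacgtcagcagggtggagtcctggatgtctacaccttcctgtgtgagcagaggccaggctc
Zscan4f: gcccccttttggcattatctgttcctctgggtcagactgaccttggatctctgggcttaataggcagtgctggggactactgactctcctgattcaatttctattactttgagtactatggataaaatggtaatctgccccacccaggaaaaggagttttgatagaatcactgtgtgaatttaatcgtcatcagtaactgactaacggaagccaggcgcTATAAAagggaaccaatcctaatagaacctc
Pcdh8: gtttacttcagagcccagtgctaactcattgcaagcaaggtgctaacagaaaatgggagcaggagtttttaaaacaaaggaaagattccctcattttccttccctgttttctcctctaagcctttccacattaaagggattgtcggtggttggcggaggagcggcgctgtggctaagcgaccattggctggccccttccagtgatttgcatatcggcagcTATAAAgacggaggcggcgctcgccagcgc
They lie at chr7:103416446-103416695 (plus strand), chr10:127800903-127801152 (plus), chr7:11397665-11397914 (plus) and chr14:79771313-79771562 (minus). The first base of TATAAA stands 88, 82, 31 and 30 bases before the start, and the 250 bases hold 1, 4, 3 and 11 CpG dinucleotides. In 2 genes that were lower in cDKO, the capitals mark GGGCGG or its reverse complement, the GC box, where matches do not overlap. A further GGGCGG in Tox2 begins at the last base of a marked one and is left in lower case.
Tox2: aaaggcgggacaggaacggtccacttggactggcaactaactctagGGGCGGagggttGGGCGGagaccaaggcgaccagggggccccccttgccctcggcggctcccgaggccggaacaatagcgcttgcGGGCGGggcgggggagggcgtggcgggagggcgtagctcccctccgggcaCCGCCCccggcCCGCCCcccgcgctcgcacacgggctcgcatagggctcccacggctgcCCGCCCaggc
Dnmt3a: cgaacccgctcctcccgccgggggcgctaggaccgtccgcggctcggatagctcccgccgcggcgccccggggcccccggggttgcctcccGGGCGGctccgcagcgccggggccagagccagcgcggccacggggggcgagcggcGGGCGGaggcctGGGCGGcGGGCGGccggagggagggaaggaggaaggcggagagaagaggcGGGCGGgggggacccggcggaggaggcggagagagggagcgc
These lie at chr2:163202877-163203126 and chr12:3806730-3806979, both on the plus strand, with 27 and 38 CpG dinucleotides.

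Over the 300 bases of each matched promoter, with both strands searched, TATAAA was found in 11.8% of 475 higher genes, 4.82% of 311 lower genes and 7.06% of 5851 genes not called. In all 32851 promoters of the RefSeq table the share was 13.6%. GGGCGG was found in 59.8%, 70.4% and 65.5% of the same groups and in 35.7% of all promoters. The median ratio of observed to expected CpG was 0.716, 0.814 and 0.769. Split by level, among genes under 10 RPM in GKAO controls TATAAA was in 17.0% of higher genes and 8.11% of genes not called, and at or above 10 RPM in 7.61% and 6.29%. Counted only on the gene's strand and 45 to 15 bases before the start, TATAAA was in far fewer genes. It was in 2.74% of higher, 0.32% of lower and 1.37% of uncalled genes (13, 1 and 80), and in 2.14% of all promoters. The other 3 motifs varied less. CACGTG (the E-box bound by basic helix-loop-helix factors) was in 11.2% of higher, 13.5% of lower and 10.4% of uncalled genes and in 7.15% of all promoters. GCGGGA (an E2F core) was in 35.2%, 40.2% and 37.0%, and in 6562 of all 32851. TGACGTCA (the cAMP response element) was in 3.37%, 3.54% and 3.59%, and in 1.79% of all. These shares are descriptions of letters in a window and carry no test.

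Of 11 genes of the two-cell stage, at which the mouse embryo starts its own transcription, 7 were higher in cDKO (63.6%) and 0 lower, against 7.82% and 4.83% over all named genes. The list held 40 symbols, of which 16 were matched to loci and 11 passed the rule. Of the 7, 3 had no control reads and entered only through cDKO, so their direction was set by the rule. The rule thus placed these 3 raised genes among the 11, and the share of 63.6% is a description. The median log2 fold change of the list was 1.35 (1.22 with those 3 set at their bound), and 6 were higher after centring. Their summed level was 236 to 278 RPM in controls and 460 to 516 RPM in cDKO. Zscan4d, a zinc finger gene that marks this stage, had 3, 3 and 10 reads in controls and 128 and 103 in cDKO (log2 fold change 4.88 ± 0.45, adjusted p = 2.27e-24). Zscan4f, a near-identical copy whose reads may be shared with other members, had 6 and 8 reads in cDKO and none in controls, at least 8.16-fold higher, and missed the threshold with 1 or 0.1 RPM added (adjusted p = 0.0645 and 0.151). Dub3, a deubiquitinase of the same multicopy family as Usp17l5, had 0, 1 and 1 reads against 16 and 11, a ratio of 23.6 (5.93 to 205). Zscan4d and Dub3 had both cDKO libraries above every control, which the naming rule required for Zscan4d.

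The steepest falls among named genes with at least 20 reads in every control and no overlap were in Gm4907, Tex15, Sox8 and Lbx1. Gm4907, a predicted gene on X, had 28, 76 and 39 reads in controls and 2 and 14 in cDKO (log2 fold change -2.84 ± 0.43), but it did not pass without cDKO 1 (-1.41, adjusted p = 0.0761) or in 3 settings that raise low values (0.14 to 0.172), and moved to -4.28 without cDKO 2. Tex15, which is needed for meiotic recombination and transposon silencing in the male germline (chromosome 8, 33516621 to 33585582), had 147, 125 and 180 RPM in controls and 15.9 and 27.3 RPM in cDKO (log2 fold change -2.84 ± 0.20, adjusted p = 1.48e-41). Sox8, a transcription factor of the Sox family, had 32, 27 and 29 reads against 5 and 3 (-2.72 ± 0.44). Lbx1, a homeobox gene of muscle and neural precursors, had 65, 97 and 49 reads against 13 and 9 (-2.44 ± 0.29, adjusted p = 4.45e-14). The cDKO libraries were below every control in all 4 genes, which this choice required.

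Phldb3 had 46, 54 and 64 reads in controls and 11 and 15 in cDKO (log2 fold change -1.88 ± 0.39). Tox2, an HMG-box gene, had 27, 43 and 32 against 10 and 7 (-1.79 ± 0.40), and 4921506M07Rik 56, 110 and 80 against 29 and 13 (-1.82 ± 0.26). Cd4, known for the T cell coreceptor it encodes, had 29, 47 and 35 against 9 and 10 (-1.73 ± 0.41), and did not pass with 0.1 RPM added (adjusted p = 0.0582). No reading of the 2 groups overlapped in these genes, which the rule that named them required. A locus without a gene name, TCONS_00022000 on chromosome 12 (37589330 to 37598113), had the largest fall of those shown, from 36, 51 and 52 reads to 3 and 2 (-4.02 ± 0.47, adjusted p = 1.21e-14). The longer locus on the other strand that overlaps it, TCONS_00024381 antisense to Agmo, had 40, 56 and 54 against 9 and 11 (-2.11 ± 0.38). TCONS_00101364 on chromosome 8 had 23, 28 and 42 against 7 and 5 (-2.14), and did not pass in 3 of the 17 alternative settings.

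Abundant transcripts moved by smaller factors, with little spread between libraries. Dnmt1, the maintenance DNA methyltransferase, had 9243, 8900 and 8857 RPM in controls and 6202 and 5836 RPM in cDKO (log2 fold change -0.58 ± 0.03, adjusted p = 3.57e-86). Dnmt3a, a de novo DNA methyltransferase, had 492, 415 and 467 RPM against 324 and 311 (-0.53 ± 0.09). Akap12, a scaffold protein for kinase A, had 1043, 996 and 969 RPM against 518 and 553 (-0.91 ± 0.07). In each, both cDKO libraries were below all controls.

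Nudc, a dynein-associated protein, had 1358, 1218 and 1175 RPM in controls and 781 and 768 RPM in cDKO (log2 fold change -0.69 ± 0.07). Gdf9, the growth factor that oocytes send to granulosa cells, had 4388, 4432 and 4562 RPM against 3559 and 3882 (-0.26 ± 0.04). Bub1b, of the spindle checkpoint, had 2225, 2072 and 2204 RPM against 1691 and 1547 (-0.42 ± 0.05, not passing with voom precision weights, adjusted p = 0.0596, or with 0.1 RPM added, 0.0503). The groups were again separate. Gdf9 and Nudc were 0.22 and 0.43 on the log2 scale higher in GKAQ than in GKAO controls. For Gdf9 the GKAO controls averaged 3820 RPM, beside 3720 RPM in cDKO. Both genes kept the call with all 6 controls as the reference. Bms1, a ribosome assembly factor, changed by -0.49, Fip1l1, a factor of mRNA polyadenylation, by -0.36, Rdx, the actin-membrane linker radixin, by -0.46 and Nexn, an actin-binding protein, by -0.61. With all 6 controls as the reference Rdx and Nexn did not pass (adjusted p = 0.28 and 0.176).

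Among abundant genes that rose, Hspa8, a constitutive chaperone, had 578, 567 and 584 RPM in controls and 949 and 901 RPM in cDKO (log2 fold change 0.68 ± 0.08). Slbp, which binds histone mRNA, had 783, 792 and 825 RPM against 1228 and 1061 (0.51 ± 0.06). Both cDKO values exceeded every control in both genes. Zp3 had 1018, 1078 and 1075 RPM against 1454 and 1259 (0.36 ± 0.06), and Zp2 had 1335, 1474 and 1423 RPM against 1880 and 1648 (0.32 ± 0.05), both encoding zona pellucida proteins. These zona genes and Slbp also differed between the 2 control sets, Zp2 being 1.04 on the log2 scale lower in GKAQ than in GKAO controls. With all 6 controls as the reference Slbp, Zp3 and Zp2 did not pass (adjusted p from 0.874 to 0.969), and Zp2 changed sign to -0.20. Smaller rises were called in Skp1a (0.29, with nearly the same reads on the other strand), Padi6 (0.22) and Zbed3 (0.20). Padi6 lost its call in 4 alternative settings and Zbed3 in 4, centring among them for Zbed3 (adjusted p = 0.0587).

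The chromatin genes around G9a and GLP changed in few members. Each list is again read against 7.82% higher, 4.83% lower and a median log2 fold change of 0.12 over all named genes. The share lower depends on level. Among loci on a gene it was 4.38% between 10 and 100 RPM in GKAO controls and 15.5% above 100 RPM. The lists were not matched for level, so 4.83% is a low reference for a list of abundant genes. Of 12 H3K9 methyltransferases and partners, 0 were higher and 3 lower (median -0.07), Ehmt1 among them. Of 10 H3K9 demethylases and HP1 proteins, 1 was higher and 0 lower (median 0.28). That gene was Kdm3a, which removes H3K9 methylation, with 15.1, 12.1 and 11.3 RPM in controls and 35.9 and 33.8 RPM in cDKO (log2 fold change 1.45 ± 0.34, adjusted p = 0.000864). DNA methylation genes had 1 of 14 higher and 3 lower (median 0.10), the lower ones including Dnmt1 and Dnmt3a. H3K4 methylation genes had 2 of 16 higher and 1 lower (median 0.02), and Polycomb genes 1 of 28 higher and 4 lower (median -0.15). Histone genes had 2 of 17 higher and 0 lower (median 0.23).

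The oocyte's own programme moved in both directions. Zona and fertilization genes had 4 of 11 higher and 0 lower (median 0.31), which became 2 and 1 after centring. Oocyte transcription factors had 4 of 19 higher and 1 lower (median 0.14). Sohlh2, an early oocyte factor, had 3.77, 7.50 and 5.91 RPM in controls and 17.1 and 28.5 RPM in cDKO (log2 fold change 2.00 ± 0.41), and Klf4, a pluripotency factor, 11.3, 14.2 and 12.3 RPM against 50.7 and 40.9 (1.86 ± 0.31). Subcortical maternal complex and maternal effect genes had 3 of 22 higher and 4 lower (median -0.01). Npm2, a nuclear chaperone of the egg, had 1456, 1508 and 1347 RPM against 1049 and 1172 (-0.37 ± 0.06). Of 14 oocyte-somatic signalling genes, 0 were higher and 2 lower (median -0.09), Gdf9 and Kit. Kit, the receptor for the granulosa ligand Kitl, had 581, 611 and 571 RPM against 439 and 462 (-0.38 ± 0.08). The 19 oocyte markers, which overlap these lists, had 6 higher and 5 lower (median 0.13).

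In the lists of mRNA storage and meiosis more genes were called lower than higher, while most genes did not pass. Of the 3 medians 2 were above 0, but all 3 lay under the 0.12 of all named genes. After centring they were -0.06 (mRNA storage), -0.0014 (meiotic arrest) and -0.16 (kinetochore), against 0.03 over all named genes. These lists were not matched for level, on which the share lower depends. Maternal mRNA storage and decay genes had 2 of 25 higher and 7 lower (median 0.04). Eif4e1b, the oocyte's cap-binding protein, had 874, 935 and 810 RPM in controls and 574 and 640 RPM in cDKO (log2 fold change -0.52 ± 0.07, adjusted p = 6.32e-10). Cnot6l, a deadenylase, had 349, 422 and 374 RPM against 273 and 288 (-0.44 ± 0.10), and did not pass in 3 alternative settings (adjusted p from 0.079 to 0.0957). Meiotic arrest and resumption genes had 0 of 28 higher and 3 lower (median 0.09). Kinetochore, spindle and APC genes had 4 of 73 higher and 10 lower (median -0.07). Cenpe, a kinetochore motor, had 855, 876 and 910 RPM against 523 and 590 (-0.66 ± 0.08, adjusted p = 3.46e-15), and the spindle protein Tacc1 166, 150 and 167 against 86.5 and 96.6 (-0.81 ± 0.15). Both were lower in each cDKO library than in any control.

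The motor Kif5c fell (-0.76) and Kif2c, a microtubule depolymerase, rose from 366, 385 and 377 RPM to 590 and 493 (0.52 ± 0.09). Kif26b and Kif21b were also called higher (1.12 and 1.04), but neither passed in 3 settings that raise low values, nor did Kif5c with 0.1 RPM added (adjusted p = 0.0547). Splicing factors had 1 of 80 higher and 13 lower (median -0.01), and 0 and 19 after centring. Of the 80, 73 were at or above 10 RPM in controls, and this list was not matched for level either. Snrpn, a splicing protein from an imprinted locus, had 33, 46 and 36 reads in controls and 16 and 13 in cDKO (-1.19 ± 0.30). Small RNA silencing genes had 2 of 22 higher and 4 lower (median 0.24). Drosha, which cuts primary microRNAs, had 335, 350.5 and 361 RPM against 268 and 258 (-0.41 ± 0.10).

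Germline and testis genes had 8 of 41 higher and 5 lower (median 0.19), and 6 and 5 after centring. Mael, a piRNA pathway gene, had 39.6, 30.8 and 30.1 RPM in controls and 91.7 and 70.0 RPM in cDKO (log2 fold change 1.27 ± 0.21, adjusted p = 2.00e-07). Tktl2, a testis-expressed transketolase-like gene, had 18.9, 21.3 and 18.7 RPM against 58.1 and 50.4 (1.47 ± 0.28). By contrast Tdrd9, a piRNA pathway helicase, had 73.5, 79.2 and 75.4 RPM against 35.9 and 38.5 (-1.03 ± 0.19). Dazl, an RNA-binding protein of germ cells, was lower by -0.59, and the testis tubulin Tuba3a by -0.71, without passing for Tuba3a with 0.1 RPM added (adjusted p = 0.0513). Imprinted genes had 5 of 30 higher and 3 lower (median 0.22), and 3 and 3 after centring. Grb10, an adaptor that restrains insulin signalling, had 23.3, 17.1 and 18.2 RPM against 67.8 and 41.5 (1.45 ± 0.23). Grb10 was 1.02 on the log2 scale lower in GKAQ than in GKAO controls and did not pass with 0.1 RPM added (adjusted p = 0.0524). Igf2r, which clears IGF2, was lower by -0.66 but did not pass in 4 settings (adjusted p from 0.119 to 0.147).

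Ribosomal protein and respiratory genes had positive medians, before and after centring. Cytosolic ribosomal protein genes had 10 of 71 higher and 1 lower (median 0.26, and 9 and 2 after centring). Rplp0, a stalk protein of the large subunit, had 81.7, 97.5 and 106 RPM in controls and 262 and 212 RPM in cDKO (log2 fold change 1.32 ± 0.13). Rplp0 was 1.22 on the log2 scale lower in GKAQ than in GKAO controls, and with all 6 controls as the reference it did not pass (adjusted p = 0.65). Rps23 had 24, 36 and 22 reads against 87 and 51 (1.52 ± 0.29, adjusted p = 0.0558 with 0.1 RPM added), and ribosomal protein genes have many processed copies whose reads may be shared. Mitochondrial ribosomal protein genes had 3 of 51 higher and 1 lower (median 0.20), with Mrpl52 at 17.6, 18.8 and 13.8 RPM against 49.0 and 34.4 (1.31 ± 0.26). Oxidative phosphorylation genes had 3 of 73 higher and 1 lower (median 0.18). Cox6c, of cytochrome oxidase, had 89.9, 84.2 and 96.1 RPM against 203 and 167 (1.03 ± 0.15), and Ndufb4, of complex I, was higher by 1.29 and Atp5k, of ATP synthase, lower by -0.78. The last pair did not pass in several settings (adjusted p up to 0.0766 and 0.27). Translation initiation and elongation genes had 2 of 54 higher and 5 lower (median 0.11), and proteasome subunits 0 of 29 and 1 (median 0.07, and 0 and 5 after centring).

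Adhesion, channel, transporter, receptor signalling and olfactory lists each had more genes called higher than lower, as had all named genes together. Cadherins and synaptic adhesion genes had 10 of 53 higher and 1 lower (median 0.40, and 8 and 1 after centring). Nfasc, a neural adhesion protein, had 14, 48 and 31 reads in controls and 126 and 119 in cDKO (log2 fold change 2.35 ± 0.30, adjusted p = 5.23e-12). Pcdh8, a protocadherin, had 0, 0 and 1 reads against 11 and 9, a ratio of 35.0 (5.59 to 1449), with an adjusted p of 0.0508 with 0.1 RPM added. Voltage and ligand gated channels had 13 of 104 higher and 6 lower (median 0.26), and 11 and 9 after centring. Kcnj16, a potassium channel, had 15 and 24 reads in cDKO and none in controls, at least 22.7-fold higher. It entered only through cDKO reads, so its direction was set by the rule. Hcn2, a pacemaker channel, had 0, 3 and 2 reads against 19 and 17 (3.56 ± 0.77, adjusted p = 0.147 with 0.1 RPM added). Trpm7, a magnesium channel with a kinase domain, fell from 109, 103 and 110 RPM to 51.2 and 55.1 (-1.01 ± 0.17).

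Solute carriers had 22 of 209 higher and 5 lower (median 0.23, and 17 and 10 after centring). Slc6a6, the taurine transporter, was lower by -1.03 and did not pass in 3 settings (adjusted p from 0.134 to 0.156). Receptor and Ras signalling genes had 17 of 135 higher and 8 lower (median 0.22, and 13 and 10 after centring), Ephb1 among the higher. Olfactory and vomeronasal receptors had 5 of 58 higher and 0 lower (median 0.42, and 5 and 0 after centring). Olfr916 had 1, 3 and 7 reads against 15 and 13 (2.54 ± 0.60, and 3.19 without control 3), and did not pass in 3 settings (adjusted p up to 0.127). Nuclear receptors had 3 of 34 higher and 3 lower (median 0.04). Rxra, the retinoid X receptor, had 32.7, 35.8 and 33.5 RPM against 117 and 83.0 (1.53 ± 0.25), and Nr1i2, a xenobiotic receptor, 2, 8 and 7 reads against 21 and 22 (2.36 ± 0.49).

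Transcription factor families had both signs. Zinc finger proteins had 21 of 322 higher and 7 lower (median 0.19), with Zfp677 at 1, 4 and 2 reads in controls and 19 and 15 in cDKO (log2 fold change 3.28, adjusted p up to 0.14 in 3 settings). Zfp532 was lower, at 45.3, 47.1 and 50.8 RPM against 25.1 and 22.5 (2.01-fold lower). Homeobox and other developmental factors had 5 of 69 higher and 4 lower (median 0.08), and 5 and 8 after centring. Hoxd1 had no control read and 14 in each cDKO library, at least 16.3-fold higher, with its direction set by the rule. Foxn4, a forkhead factor of neural progenitors, had 0, 0 and 2 reads against 23 and 16, a ratio of 34.1 (8.83 to 291), with an adjusted p of 0.0843 with 0.1 RPM added. Foxn3, a related repressor, was lower by -1.19 and did not pass in 3 settings (adjusted p from 0.0509 to 0.0689). Wnt, TGF-beta and Notch signalling genes had 2 of 51 higher and 5 lower (median 0.03).

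Stress genes were called in both directions. Heat shock genes had 4 of 20 higher and 4 lower (median -0.09, and 3 and 7 after centring). Hsp90b1, the chaperone of the endoplasmic reticulum, had 1405, 1191 and 1279 RPM in controls and 889 and 935 RPM in cDKO (log2 fold change -0.50 ± 0.06), and Hspa1b, an inducible chaperone, had 10, 6 and 12 reads against 1 and 1, a ratio of 8.01 (2.02 to 69.4). The call of Hspa1b was lost with 1 RPM added and with voom weights (adjusted p = 0.0779 and 0.0511). Genes of the p53 pathway and cell death had 2 of 28 higher and 1 lower (median 0.06), and interferon response genes 0 of 18 and 1 (median -0.06). Metal response genes had 1 of 5 higher, Mt1, and 2 lower (median -0.14). Slc30a2, a zinc exporter, had 14, 17 and 23 reads against 2 and 2 (-2.94 ± 0.60), and did not pass in 3 settings (adjusted p from 0.0527 to 0.0702).

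The X chromosome held the highest share of raised loci. Of 871 X-linked loci 111 were higher in cDKO (12.7%) and 18 lower, against 6.81% higher on the autosomes. The next chromosomes were 18 with 9.25% and 1 with 8.95%, and the lowest was 17 with 3.93%. The excess was present for loci at or above 10 RPM in GKAO controls (14.9% on X and 7.25% on autosomes) and below it (11.9% and 6.54%). It was also present for loci on genes (13.9% and 7.47%), antisense loci (12.2% and 4.96%) and intergenic loci (12.2% and 7.55%). Across the 17 alternative settings the share on X was 1.73 to 2.29 times that on autosomes. Between the 2 control sets the corresponding shares were 2.64% and 3.24%.

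Reads from X made up 2.44%, 2.46% and 2.47% of the reads of these loci in the controls and 2.63% and 2.76% in cDKO. The groups did not overlap, at 2.46 ± 0.01 (SD, n = 3) and 2.70 ± 0.09 (SD, n = 2), and a two-sided exact permutation test gave p = 0.2, the smallest p these group sizes allow. In G9a cKO the share was 2.54%, 2.55% and 2.54% against 2.49%, 2.45% and 2.48% in its controls (exact permutation p = 0.1, the smallest allowed). Of X-linked loci 663, 727 and 689 had reads in controls, and 767 and 775 in cDKO. That is 3.45%, 3.51% and 3.39% of all the loci with reads in controls and 3.70% and 3.73% in cDKO. X-linked loci that were not called held 1.75%, 1.79% and 1.79% of reads in controls and 1.87% and 1.95% in cDKO.

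**Figure D4:**
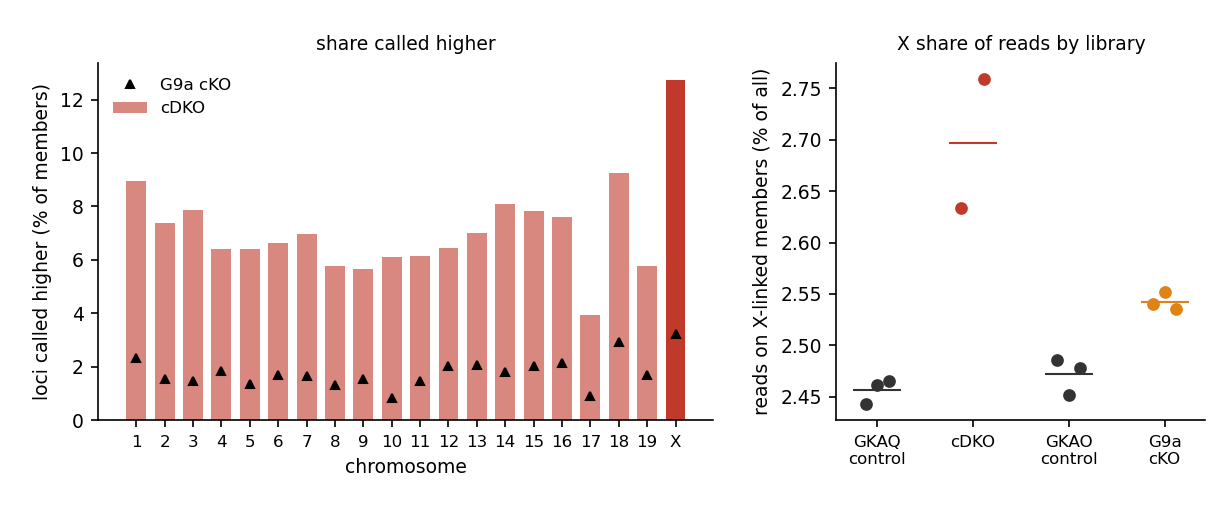
Percent of loci called higher by chromosome (bars for cDKO, triangles for G9a cKO) and the share of reads from X in each library (points, with a line at each group's mean). X has the tallest bar at 12.7%, and its share of reads is 2.63% and 2.76% in cDKO against 2.44% to 2.47% in the GKAQ controls.

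The following X-linked genes were chosen for display after their values were seen, among those whose call held in every alternative setting. Gpc3, a cell surface proteoglycan (X, 52272426 to 52613921), had 7, 20 and 5 reads in controls and 106 and 113 in cDKO (log2 fold change 3.83 ± 0.35, adjusted p = 3.22e-24). Pet2 had 16, 27 and 26 against 92 and 83 (2.17 ± 0.29), and Magea10, a germline antigen gene, 19, 50 and 35 against 71 and 87 (1.49 ± 0.27). In all 3 genes both cDKO libraries exceeded every control. Genes with more reads rose less. Hmgn5, a nucleosome-binding protein, had 126, 164 and 115 reads against 314 and 215 (1.16 ± 0.17), Acot9, a mitochondrial thioesterase, 96, 106 and 101 against 176 and 215 (1.15 ± 0.20), and Usp11, a deubiquitinase, 64, 99 and 91 against 151 and 147 (1.04 ± 0.20). Log2 fold changes of Utp14a, Dgkk, Nhs and Gabrq were 1.06, 0.92, 1.47 and 1.62.

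Raised loci lay near each other somewhat more often than other loci did. Another higher locus lay within 100 kb of 23.6% of the higher loci (390), 18.2% of the uncalled and 17.2% of the lower ones. A lower locus lay within 100 kb of 8.06% of the higher, 14.4% of the lower and 13.5% of the uncalled loci. Overlapping loci on opposite strands count in these shares, and they carry no test. The 1 Mb window with the highest share was X from 51 to 52 Mb, just before Gpc3, where 5 of 9 loci were higher (55.6%). Of the 5, 2 had no control reads, so their direction was set by the rule. The window was also chosen after its values were seen. There Hs6st2, a heparan sulfate sulfotransferase, had 1, 1 and 2 reads in controls and 11 and 16 in cDKO (log2 fold change 3.60), and 1700080O16Rik had 19 and 10 reads in cDKO and none in controls, at least 16.9-fold higher. Neither passed with 0.1 RPM added (adjusted p = 0.198 and 0.0533).

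H3K9me2 was measured in the same genotypes by low-input native chromatin immunoprecipitation, in 2 control, 2 cDKO and 2 G9a cKO libraries. Their titles carry neither the GKAQ nor the GKAO prefix, so the set from which the controls came is not known. The same 2 controls stand beside both mutants. Each locus was given the mean RPM of the 10 kb windows it overlaps, for 23417 loci. The controls held 7048784 and 19128881 reads over windows and the cDKO libraries only 1723142 and 1881848. The G9a cKO libraries held 1857144 and 1109191. Values are shares of each library, so a change in the total amount of the mark cannot be seen. The series also holds input libraries for each genotype and control IgG libraries. They were not used here, so the values are not corrected for input. Loci whose RNA rose had a median of 4.04 and 4.10 RPM per window in controls and 4.06 and 4.07 in cDKO (median log2 fold change -0.01, 1645 loci). Loci whose RNA fell had 3.56 and 3.47 in controls and 4.35 and 4.33 in cDKO (0.31, 775 loci). Loci not called had 3.86 and 3.83 against 4.15 and 4.25 (0.14, 20997 loci). The groups overlapped only for loci whose RNA rose.

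With limma 752 loci were called higher in H3K9me2 (3.21%) and 70 lower (0.299%), 76 of the higher calls being among loci whose RNA fell (9.81%). Those calls depend on the libraries: limma called 179 higher and 9 lower without control 1, and 120 higher and 3 lower without control 2. Without cDKO 1 or cDKO 2 limma called 0, with 3687 and 4962 loci at an unadjusted p under 0.05. The medians also varied with the level of RNA. For loci above 100 RPM in GKAO controls the median log2 fold change of H3K9me2 was 0.25 where RNA rose, 0.37 where it fell and 0.35 where it was not called. Between 1 and 10 RPM the same medians were -0.10, 0.13 and 0.07.

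Over all X-linked loci the median of the mark was lower in every cDKO and G9a cKO library than in either control. X-linked loci had a median of 4.05 and 4.08 RPM per window in controls, 3.48 and 3.72 in cDKO, and 3.23 and 3.16 in G9a cKO. Autosomal loci had 3.85 and 3.82, then 4.19 and 4.25, and 3.77 and 4.06. The median log2 fold change in cDKO was -0.16 on X and ranged from -0.01 (chromosome 16) to 0.26 (chromosome 11) on the autosomes. X-linked loci whose RNA rose had -0.26 (111 loci) and those not called -0.16 (742 loci). The 18 X-linked loci whose RNA fell had 0.11, with 3.63 and 3.45 RPM per window in controls and 3.38 and 3.85 in cDKO. With 2 libraries a group these medians carry no test, and they are not corrected for input. The part of background and of the lower depth of the mutant libraries was not tested.

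**Figure D5:**
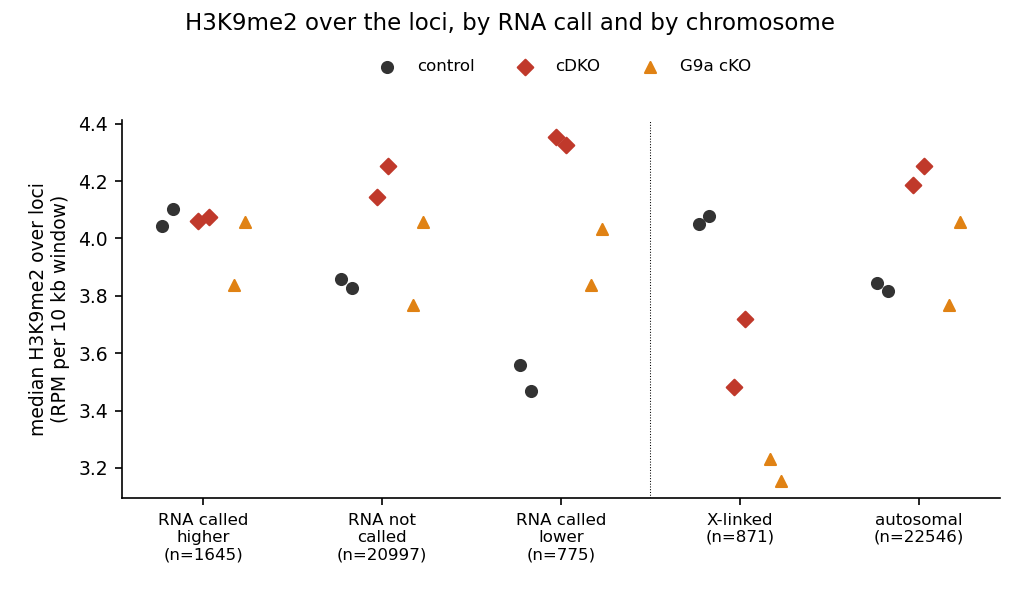
Median H3K9me2 in RPM per 10 kb window for loci grouped by their RNA call in cDKO and by X or autosome, 1 point per library (2 control, 2 cDKO and 2 G9a cKO). Points for loci whose RNA fell go from 3.56 and 3.47 in controls to 4.35 and 4.33 in cDKO, and points for X go from 4.05 and 4.08 to 3.48 and 3.72.

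Loss of G9a alone called fewer of the same loci. In G9a cKO against the GKAO controls, which are other libraries than the controls of cDKO, 405 loci were higher (1.73%) and 283 lower (1.21%). Of these, 251 were also higher in cDKO, which is 62.0% of the G9a cKO calls and 15.2% of the cDKO calls. Of the lower loci, 100 were shared, 35.3% and 12.8%. On X, 3.22% were higher in G9a cKO and on autosomes 1.67%. The difference between the cDKO and the G9a cKO effect was tested in the same limma fit, and 1.13% of loci had a higher and 0.652% a lower effect in cDKO. Among loci called in cDKO, 211 of the higher and 130 of the lower passed that test in the same direction.

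The log2 fold change of Tex15 was -2.84 in cDKO and -2.57 in G9a cKO (adjusted p of the difference 0.492), and that of Mt1 was 7.55 and 6.44 (0.249). Cenpe had -0.66 and -0.64 (0.914), and Pet2 2.17 and 2.18 (0.983). A difference in these genes did not pass the threshold, which does not show that the effects are equal. Ehmt1 had -2.06 and 0.08, with an adjusted p of the difference of 1.98e-11. Dnmt1 had -0.58 and 0.00 (6.14e-47), Akap12 -0.91 and 0.02 (7.69e-19), and Rplp0 1.32 and 0.14 (1.64e-08). For Rplp0 the difference of 1.18 was about the size of its offset between the 2 control sets (-1.22, GKAQ relative to GKAO). Gpc3 had 3.83 and 1.42 (0.000204), with an offset of -1.13 between the controls, and Kit -0.38 and 0.10 (0.003). For Ehmt1, Dnmt1, Akap12 and Kit the change in cDKO was larger than in G9a cKO by the test of the difference itself. Rplp0 and Gpc3 also passed that test, but the offsets between their controls enter the difference. Zscan4d had 4.88 and 2.83 (0.0553) and Limch1 5.78 and 3.49 (0.169), neither difference passing. Of the two-cell list 1 gene was called higher in G9a cKO and 7 in cDKO, 3 of the 7 with their direction set by the rule. In that list 1 gene passed the test of the difference.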

How the data were processed

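RNA was sequenced from pools of germinal vesicle stage mouse oocytes, and H3K9me2 was profiled by low-input native chromatin immunoprecipitation. The authors deposited log2 values per locus or 10 kb window and library. These are log2 of reads scaled to the library total, as found from the values, which are whole reads once unscaled, with 0.9 read in place of 0. Trim Galore, Bowtie2, HISAT2 2.1.0, Bismark 0.19.0 and the build GRCm38 are named in the submitters' processing notes. The counting tool, filters and use of strand are not given in the sources used here. Left out were 4 columns of H3K9me2 values whose names fit none of the samples, and 1 empty row of RNA values. Results for some genes are not reported here.

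RNA depth was 1591100 to 2399680 reads per compared library. The deposited RNA log2 values of 11 libraries were fitted in limma 3.58.1 (R 4.3.3) with a mean per group, variance trend and robust empirical Bayes. P-values were two-sided, with Benjamini-Hochberg adjustment across every locus. The same fit gave G9a cKO against its controls and the difference of the effects. H3K9me2 was tested in limma over 6 libraries for loci with at least 10 reads in the 4 compared. Ratios with 1 to 3 reads in a group carry exact 95% intervals, and a group without reads was set at 3 counts. Both scripts were tested on simulated data. Tables and figures used Python 3.11.15, pandas 2.3.3, scipy 1.17.1, matplotlib 3.10.9 and data.table, version 1.17.8.

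Named genes are Ehmt1 and Ehmt2, the genes among the 15 largest called changes in each direction with at least 20 reads in every library of the higher group and no overlap, the 10 largest differences of mean RPM in each direction, up to 4 called genes per direction from each of 40 lists, the 3 most abundant markers of other cells, and 3 loci without a gene name in each direction. Not every gene the rule gives is printed. The loci, lists and rules were chosen with earlier results of these data known. Alternatives changed the loci tested, the libraries in the fit, the scaling, the floor or pseudocount, the weights, the robust option, the reference controls and, in turn, each library. Samples were grouped by the genotype labels and title prefixes.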

Additional observations from a re-analysis of the deposited data

Results flagged for a closer look

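Each gene or locus here changed by a different amount in cDKO than in G9a cKO, by the limma test of the difference of the effects over all loci (Benjamini-Hochberg adjusted). The 2 effects rest on different controls. The value is the cDKO log2 fold change minus that in G9a cKO.

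The difference was -2.14 for Ehmt1 (adjusted p = 1.98e-11), which is intact by label in G9a cKO. Genes with a larger rise in cDKO were Mll1 with 5.39 (0.000318) and Rgs7 with 4.73 (7.88e-05). The same held for Ptgs2 with 4.37 (0.00873), Tlr8 with 3.01 (0.00802) and Slc34a2 with 4.92 (0.000424). Usp17l5 had a difference of 4.44, but it entered only through cDKO reads, so the value is a description. A larger fall was found for Lbx1 with -2.36 (2.62e-06), 4921506M07Rik with -1.70 (0.000469) and the unnamed locus TCONS_00022000 with -2.34 (0.0278). In G9a cKO the log2 fold change was 1.02 for Usp17l5, -0.22 for Mll1, 0.31 for Rgs7, 0.27 for Ptgs2, -0.71 for Slc34a2, -0.08 for Lbx1 and -0.12 for 4921506M07Rik, none of them called. It was called, in the direction of cDKO, for Tlr8 (1.62, adjusted p = 0.0496) and TCONS_00022000 (-1.68, 0.00727).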

How the results depend on the processing

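Against 2429 loci called in cDKO as reported, 1109 were called when every value was raised to a common floor (807 higher and 302 lower), 1158 with log2(RPM + 1) and 875 with log2(RPM + 0.1). In those fits over the whole table, loci without reads lose all spread. Restricted to loci with reads in at least 2 of the 5 libraries, alternatives added after seeing the data, the common floor gave 2262 and log2(RPM + 1) gave 2805. Leaving out each library in turn gave 1474 (without cDKO replicate 1) to 1813, where a lone cDKO library is assumed to vary like the other groups. Voom weights gave 2716 and the remaining alternatives 2238 to 2537, with the split by scaling given above. The 822 H3K9me2 calls became 0 to 188 when each library was left out, and 857 and 832 with other rules for windows and reads.

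Of the 219 called genes that the naming rule gives, 68 kept the call in all 17 alternatives and 115 without each library in turn. The 108 of them with values in the text include most of those that kept it, 63 and 103. Zp2 reversed, to -0.20 with all 6 controls as the reference, and the GKAQ controls had Zp2 1.04 lower on the log2 scale than the GKAO controls. G9a cKO calls and the difference of effects were fitted only as reported, with 688 and 417 loci called. No paired analysis was possible because the labels give no replicate numbers that pair control and cDKO libraries; only the title number GKAQ55 is shared, by 1 control and 1 cDKO library. With 2 cDKO libraries of 1756271 and 1686855 reads, small changes at loci with few reads were not detectable.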
